A study of Bos taurus with 43 samples.

Results

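The slow-twitch contractile genes examined here are the 8 genes MYH7, MYH7B, MYL2, MYL3, MYL6B, MYBPC1, TNNT1 and TNNC1, which encode sarcomere proteins of slow (type I) muscle fibres. They were taken by name from the gene names, probe descriptions and accession symbols of a bovine oligonucleotide array, and each was represented by 1 probe among 21475 gene probes, printed at 2 spots. All 8 probes were among the 16354 probes that passed the filter on dim signals, and all 8 were well above background on all 43 arrays. The MYL6B probe is A_73_109996. The MYL3 probe, A_73_109260, carries the name only in its description and shares its accession with the MYL1 probe A_73_104721, so its identity is uncertain.

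Slow fibres contract slowly, resist fatigue and live mainly on oxidative metabolism, whereas fast fibres rely more on glycolysis. The type of a fibre is set by which isoforms of myosin heavy chain, myosin light chain, troponin and myosin-binding protein it builds, and the slow set is partly shared with the heart. Slow and fast programmes are both under nerve activity and calcium signalling through calcineurin, and limb muscles differ in how much of each fibre type they hold.

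Biceps brachii, a forelimb muscle, was sampled from 43 male cattle, with 1 animal hybridized per array in a single colour. The positive group held 4 commercial animals (S21, S54, S56 and S57) labelled as suspected of corticosteroid treatment. The study classed them as positive by thymus histology and by the corticosteroid dexamethasone in their urine. The urine value of S56 was below the limit of quantification. The unknown group held 21 commercial animals of undeclared treatment, in whose urine the study did not detect dexamethasone. All 25 commercial animals were between 12 and 24 months old and mostly Charolais, Limousine or their cross. The untreated controls came from earlier experiments, 5 of them Charolais x Limousine cross-breeds (K) of 18 months and 13 of them Holstein (C) between 13 and 18 months old. For description only, the unknown animals are also given in the sets that were drawn by eye on a principal component plot of these same arrays: 10 animals in set B, where the positive animals also lay, and 11 in set A, of which 6 were placed in group 4 and 5 in group 2 (the group of the cross-breed controls). Animal 76 of set B was also drawn in group 4, and is counted below in set B only. Because these sets were made from the same signals, no test was run between them.

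The cross-breed arrays were on slides, scan days and scanners of their own, and the Holstein arrays shared no slide or scan day with the commercial ones. Set A and set B shared no slide or scan day either. Only 2 slides held positive and unknown animals together, and the unknown animals on them all belonged to set B. The group, the breed, the source experiment and the array batch therefore cannot be told apart in the comparisons with controls. The share of gene spots well above background ran from 62.3% to 73.6% on control arrays, from 66.3% to 79.2% in set A, from 74.9% to 89.4% in positive animals and from 40.2% to 97.3% in set B. The array of unknown animal 76 had 109 saturated gene spots, against 5 at most on any other array. The arrays of animals 29, 39, 52, 61 and 76, all of set B, had spike-in signals of 7.75 to 8.41, against 11.33 or more on every other array. The median spike-in signal was 10.18 in set B, 11.92 in group 4, 12.06 in group 2 and 12.38 in positive animals. The number of arrays limits the precision of every value below.

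The labelled tissue was set against its marker genes. The probes of ACTA1, CKM and DES, which encode skeletal actin, muscle creatine kinase and desmin, were well above background on 43 of 43 arrays. Of the heart markers, TNNI3 was well above background on 43 arrays, TNNT2 on 33, GATA4 on 31, MYBPC3 on 14, NPPA and MYL7 on 9 each, NKX2-5 on 7 and NPPB on 0. TBX5, a forelimb transcription factor, was well above background on 7 arrays only and did not pass the filter. Of the other non-HOX genes on the list of position genes counted below, TBX15 was so on 43 arrays and PITX1 on 41. TBX4 was so on 24 arrays and SHOX2 on 13.

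**Figure D1:**
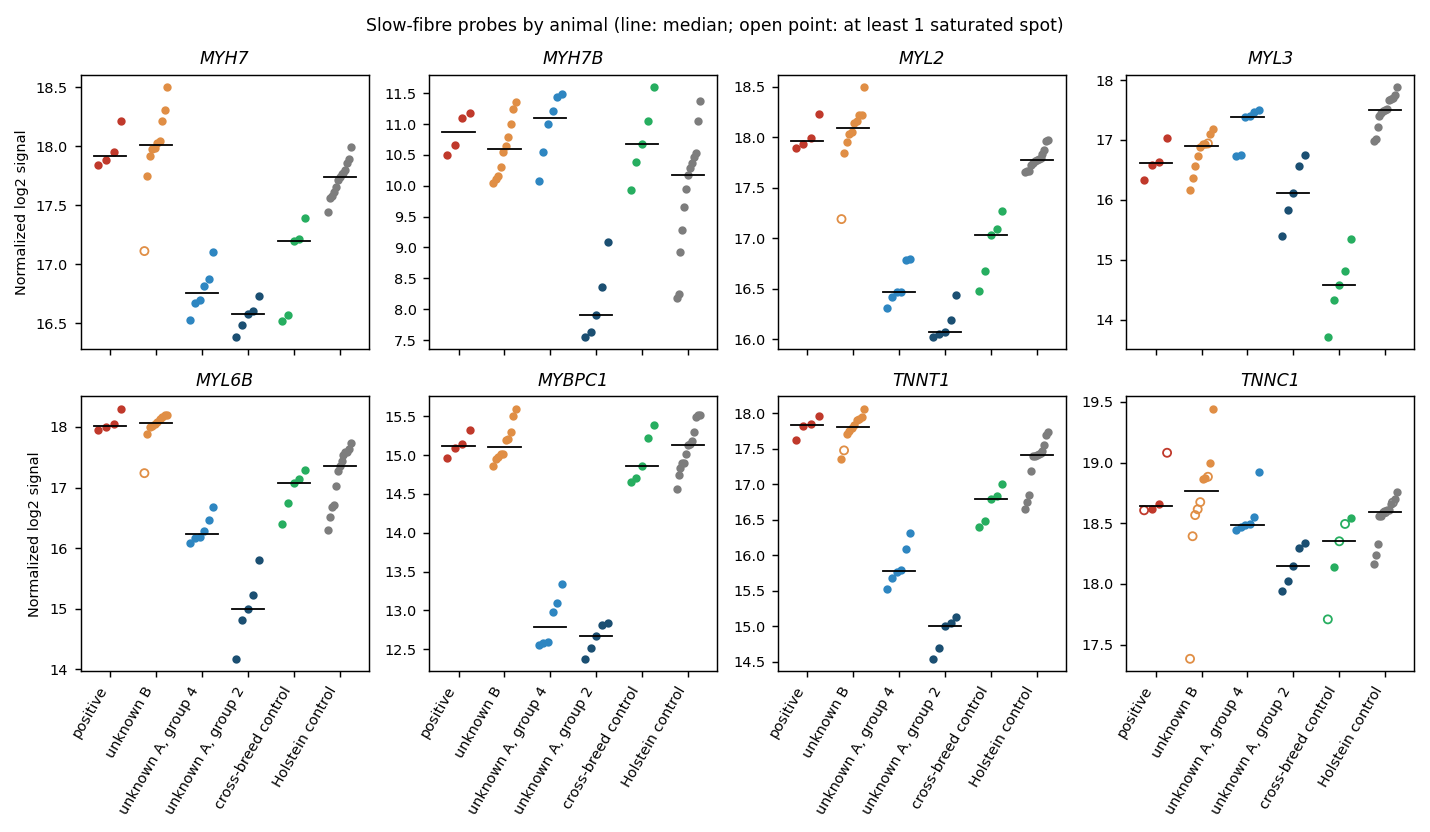
Normalized log2 signal (vertical axis) of each slow-fibre probe in every animal, by set (horizontal axis); lines are set medians and open points mark animals with at least 1 saturated spot. The MYBPC1 and TNNT1 signals of all 11 unknown animals of set A lie below those of the other 32 animals under the scaling plotted, and the MYL3 signals of the 5 cross-breed controls lie below all others.

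MYH7 encodes the beta myosin heavy chain, the motor of slow fibres and of the heart ventricle. Its normalized log2 signal was 17.96, 17.84, 18.21 and 17.88 in positive animals S21, S54, S56 and S57. In the cross-breed controls it was 17.40 in K7, 17.20 in K8, 16.57 in K10, 17.22 in K11 and 16.52 in K12. In the Holstein controls it ran from 17.44 through a median of 17.74 to 17.99. All 4 positive animals lay above all 5 cross-breed controls, and their range overlapped that of the Holstein animals. The log2 change of positive against cross-breed animals was 0.99 ± 0.21 (SE, adjusted p = 0.00296, limma), just short of the 2-fold needed for a call. It passed 2-fold with the 75th percentile (1.497), with normexp (1.40) and with slide or scan day as a random block (1.03 and 1.01). It also did so when K7, K8, K11, S54 or S57 was left out, but not without any other single animal. The change turned to -0.21 when the arrays were scaled by cyclic loess on every pair. Holstein animals lay above the cross-breeds by 0.74 ± 0.14 (adjusted p = 2.47e-04, limma), which was also under 2-fold.

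MYH7B encodes an ancient relative of the slow heavy chain that is transcribed in slow fibres, heart and brain, often without a matching amount of protein. The signal was 10.495, 11.10, 11.18 and 10.65 in the positive animals S21, S54, S56 and S57, and 11.05, 10.68, 9.94, 11.60 and 10.38 in K7, K8, K10, K11 and K12. The Holstein animals spread from 8.19 through 10.18 to 11.37, the widest spread of this probe within any labelled control group. All of these ranges overlapped. The change of positive animals was 0.13 ± 0.31 (adjusted p = 0.758) against cross-breed and 0.97 ± 0.48 (adjusted p = 0.123) against Holstein controls by limma, the first with a 95% interval from -0.56 to 0.82.

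MYL2 encodes the regulatory light chain of slow and ventricular muscle. The signal was 17.93, 17.89, 18.23 and 17.99 in positive animals S21, S54, S56 and S57, and 17.27, 17.04, 16.68, 17.09 and 16.48 in K7, K8, K10, K11 and K12. The Holstein animals lay closely together, from 17.66 through 17.78 to 17.97. The cross-breed controls were below every positive and every Holstein animal. The positive animals were higher than the cross-breeds by 1.10 ± 0.18 (adjusted p = 6.87e-04, limma), a 2.15-fold change, which was not called with quantile normalization (0.88), without K12 (0.99) or with cyclic loess on every pair (-0.08). Against Holstein animals the difference was 0.23 ± 0.10 (adjusted p = 0.0714, limma), and -0.75 with cyclic loess on every pair.

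MYL3 encodes the essential light chain of slow and ventricular muscle. The signal of the probe described as MYL3 was 16.64, 16.33, 16.58 and 17.03 in the positive animals S21, S54, S56 and S57. In the cross-breed controls it was 15.34 in K7, 14.80 in K8, 14.57 in K10, 13.71 in K11 and 14.33 in K12. The Holstein animals reached from 16.99 through 17.50 to 17.88. The 5 cross-breed controls were lower than all 38 other animals, whose lowest value was 15.39. Among all tested probes, 2.51% separated the cross-breed controls from the other 38 animals, 1.15% with the controls lower, and MYL3 was the only one of the 8 slow genes to do so. The separation was lost with the series matrix values and with cyclic loess on every pair. Holstein animals exceeded cross-breeds by 2.93 ± 0.20 (7.63-fold, adjusted p = 4.15e-09, limma) and positive animals did so by 2.09 ± 0.29 (4.26-fold, adjusted p = 2.31e-04, limma). Both differences were called under all 8 scalings and spot choices, at 2.88 to 3.34 and at 1.38 to 2.53. It was also the slow gene that ran against the rest between positive and Holstein animals, being lower in the positive animals by 0.84 (log2 change -0.84 ± 0.16, adjusted p = 8.13e-04, limma), under 2-fold. The MYL1 probe that shares its accession had medians of 16.69 in cross-breed, 17.46 in positive and 17.55 in Holstein animals, and its cross-breed range from 16.33 to 16.91 overlapped that of set A.

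MYL6B encodes an essential light chain found in slow fibres and in non-muscle cells. The signal was 18.05, 17.99, 18.30 and 17.95 in positive animals S21, S54, S56 and S57, and 17.29, 17.15, 16.75, 17.08 and 16.40 in K7, K8, K10, K11 and K12. The Holstein animals ran from 16.29 through 17.35 to 17.74. The positive animals were above both control groups without overlap. The change was 1.14 ± 0.20 (2.20-fold, adjusted p = 8.27e-04, limma) against cross-breed controls, and 0.89 ± 0.24 (adjusted p = 0.00907, limma) against Holstein controls, which was under 2-fold. The call against cross-breeds was lost under quantile scaling (0.90), under pairwise cyclic loess (0.0053) and with all 43 arrays in one fit (adjusted p = 0.173).

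MYBPC1 encodes the slow isoform of myosin-binding protein C, which braces the thick filament and tunes cross-bridge cycling. The signal was 14.96, 15.32, 15.10 and 15.14 in positive animals S21, S54, S56 and S57, and 15.39, 15.22, 14.71, 14.86 and 14.66 in K7, K8, K10, K11 and K12. The Holstein animals ran from 14.56 through 15.13 to 15.52. The 3 labelled groups overlapped. The changes were 0.16 ± 0.18 (adjusted p = 0.481) against cross-breeds, with a 95% interval from -0.24 to 0.57, and 0.04 ± 0.17 (adjusted p = 0.886) against Holsteins by limma, where the series matrix values gave -0.01.

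TNNT1 encodes slow troponin T, the subunit that ties the troponin complex to tropomyosin. The signal was 17.85, 17.63, 17.96 and 17.83 in positive animals S21, S54, S56 and S57, and 17.001, 16.83, 16.49, 16.79 and 16.40 in K7, K8, K10, K11 and K12. The Holstein animals ran from 16.66 through 17.41 to 17.74. The positive animals were above all cross-breed controls and overlapped the upper Holstein animals. The change was 1.11 ± 0.16 (2.16-fold, adjusted p = 2.97e-04, limma) against cross-breeds, and the call was lost with quantile normalization (0.88), with pairwise cyclic loess (0.10) and with all 43 arrays in one fit (adjusted p = 0.164). Against Holsteins it was 0.51 ± 0.18 (adjusted p = 0.0373, limma), under 2-fold, and -0.26 with cyclic loess on every pair.

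TNNC1 encodes the calcium-binding troponin subunit of slow and cardiac muscle. The signal was 18.66, 18.62, 19.08 and 18.61 in positive animals S21, S54, S56 and S57, and 18.49, 18.35, 18.14, 18.54 and 17.71 in K7, K8, K10, K11 and K12. The Holstein animals ran from 18.17 through 18.59 to 18.76. The positive animals overlapped the Holsteins, and their order against the cross-breeds cannot be read, since both spots were saturated in K7 and K8 and 1 spot was in K12, S56 and S57. The measured change against cross-breeds was 0.50 ± 0.20 (adjusted p = 0.0585, limma), and it ran from -1.17 with cyclic loess on every pair to 1.09 with scaling to the 75th percentile. At least 1 of its 2 spots was saturated on 13 arrays and both were on 9, among them 6 of the 10 arrays of set B. Among the Holsteins both were saturated in C44 and 1 in C45. Saturated values are bounds, so neither this change, the range of set B nor the Holstein median and range is exact. The lowest signals, 17.71 in K12 and 17.38 in unknown animal 76, were among them.

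Over the labelled groups, 4 of the 8 slow probes (MYL2, MYL3, MYL6B and TNNT1) were called at an adjusted p under 0.05 and 2-fold between positive and cross-breed animals, all of them higher in the positive animals. In the same comparison 28.1% of all tested probes were called, 14.4% as higher. As measured, the ranges of 6 of the 8 did not overlap, against 43.3% of all tested probes, 21.7% with the positive animals higher, and it was 5 without TNNC1, whose spots were saturated in K7 and K8. The median change of the 8 was 1.05, while that of all tested probes was -0.03. The 244 tested probes of comparable brightness (a mean log2 signal of at least 15) had a median of 0.21, with 30 called higher and 21 lower, and 6 of the 8 slow probes are among them. That median was 0.58 under the 75th percentile and -0.32 under cyclic loess on every pair, and the part of scaling in the slow-gene changes was not tested apart from these alternatives.

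Between positive and Holstein animals 0 of 8 were called by limma, with 17.8% of all tested probes called. Only MYL6B had ranges that did not overlap, beside 16.4% of all tested probes and 8.43% with the positive animals higher. At an unadjusted p under 0.05, 4 were higher (MYH7, MYL2, MYL6B and TNNT1) and MYL3 was lower, beside 46.1% of all tested probes in either direction. MYL6B was called under normexp background correction (1.22), and MYL3 and TNNC1 were called lower under cyclic loess on every pair (-1.50 and -1.23). Between Holstein and cross-breed animals MYL3 was the 1 slow probe called, beside 20.6% of all tested probes and 10.9% called as higher in Holstein animals, and MYH7, MYL2 and TNNT1 were called as well when arrays were scaled to the 75th percentile. The ranges of MYH7, MYL2 and MYL3 did not overlap, all with the Holstein animals higher, beside 16.2% of all tested probes and 8.10% in that direction. These 3 comparisons share their samples pairwise and are not independent of each other.

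The split of calls depended on the scaling for the whole array too. Of the probes called between positive and cross-breed animals, 51.1% were higher in the positive animals, against 69.2% with the 75th percentile, 39.8% after quantile scaling and 33.0% after pairwise cyclic loess. For positive against Holstein animals the share was 47.2%, against 83.3%, 36.9% and 27.8%. For Holstein against cross-breed animals it was 52.9%, against 34.9% with the 75th percentile. For unknown against cross-breed animals it was 50.2%, against 38.1% with pairwise cyclic loess, and for positive against unknown animals 0%, against 12.3%.

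**Figure D2:**
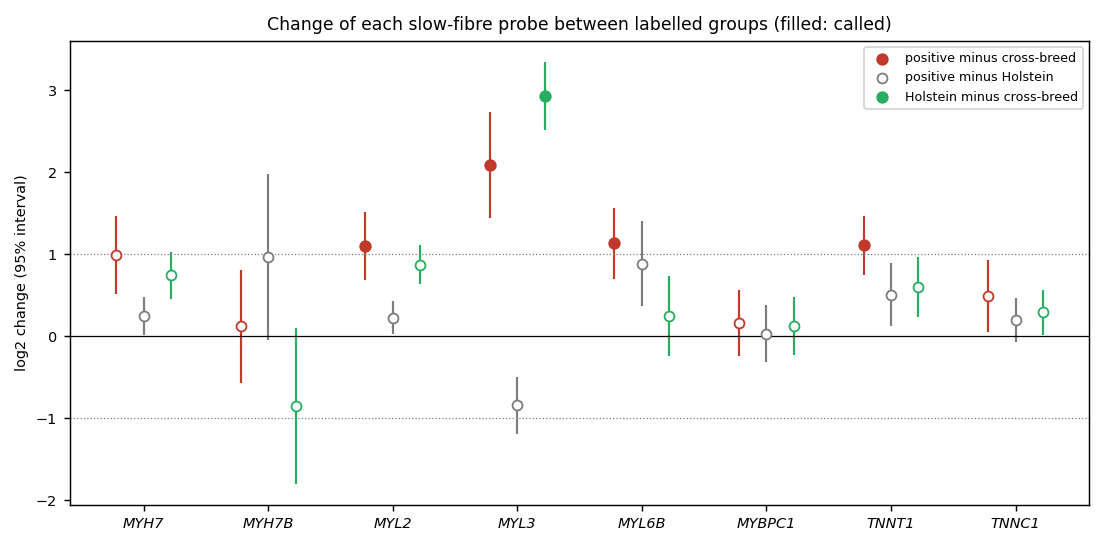
Log2 change (vertical axis) of each slow-fibre probe (horizontal axis) in the 3 comparisons of positive, cross-breed and Holstein animals; bars are 95% intervals, filled points are called and dotted lines mark 2-fold. Filled points appear for MYL2, MYL3, MYL6B and TNNT1 between positive and cross-breed animals, and for MYL3 between Holstein and cross-breed animals.

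The commercial animals of unknown treatment spread widely in their slow-gene signals, in the way the 2 sets divide them. In set B the medians of 5 slow genes lay close to those of the positive animals. The medians of set B were 18.01 for MYH7, 18.10 for MYL2, 18.07 for MYL6B, 15.11 for MYBPC1 and 17.81 for TNNT1, beside 17.92, 17.96, 18.02, 15.12 and 17.84 in positive animals. In set A the same 5 genes were lower in every animal than in any animal of set B. In a bulk tissue sample, fewer slow fibres and less slow-fibre RNA in each fibre cannot be told apart.

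For MYBPC1, set B ran from 14.87 through 15.11 to 15.59. Group 4 of set A ran from 12.56 through 12.79 to 13.34, and group 2 of set A held 12.84, 12.52, 12.66, 12.81 and 12.38 in animals 263, 265, 266, 269 and 270. The 11 animals of set A were thus below all 32 others, whose lowest signal was 14.56, and this held under all 8 scalings and spot choices. The difference of medians between set B and set A was 2.44.

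TNNT1 showed the same separation with a step inside set A. Set B ran from 17.36 through 17.81 to 18.06, and group 4 of set A from 15.53 through 15.78 to 16.32. In animal 76 of set B, at 17.48, both TNNT1 spots were saturated, so that value is a bound. The 5 animals of group 2 held 14.54, 15.13, 14.70, 14.9999 and 15.05. All 11 animals of set A were below the lowest of the other 32, at 16.40, except under normexp and cyclic loess on every pair, and group 2 was below group 4 without overlap. MYL6B had the same order, with 17.24 to 18.20 in set B, 16.08 to 16.67 in group 4, and 15.004, 15.81, 14.18, 14.82 and 15.23 in animals 263, 265, 266, 269 and 270.

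MYH7 ran from 17.11 to 18.50 in set B, from 16.53 to 17.10 in group 4 and from 16.39 to 16.74 in group 2. The lowest value of set B was that of animal 76, on whose array both MYH7 spots were saturated, so that the value is a bound, and without that animal the gap to the highest value of set A was 0.65. MYL2 ran from 17.19 to 18.50, from 16.31 to 16.80 and from 16.02 to 16.43 in the same order. The lowest values of set B for MYL2 and MYL6B were also those of animal 76, with both spots saturated. For MYH7 and MYL2 the cross-breed controls overlapped set A, which they did not for MYBPC1 and TNNT1.

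The other 3 slow genes behaved differently among the unknown animals. MYH7B was lowest in group 2 of set A, with 7.63, 9.10, 7.55, 7.90 and 8.35 in animals 263, 265, 266, 269 and 270, against 10.07 to 11.49 in group 4 and 10.05 to 11.35 in set B. Group 4 and set B overlapped over nearly their whole range. MYL3 was highest in group 4 (16.72 to 17.50), lower in set B (16.16 to 17.18) and lower again in group 2 (15.39 to 16.74), with overlap between neighbours. TNNC1 ran from 17.38 to 19.44 in set B and from 17.94 to 18.92 in set A, so its measured ranges overlapped.

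In all, 5 of 8 slow probes were higher in set B than in set A without overlap, and 0 were lower. Among all tested probes 11.7% did not overlap between these sets, 6.21% with set B higher. Among the 244 bright probes it was 61 with set B higher and 13 with set B lower. The median difference of the 8 was 1.51 and that of all tested probes -0.05. The count of 5 was 4 with the series matrix values, 3 with normexp and 2 with cyclic loess on every pair, and MYBPC1 and TNNT1 were separated under all of these. Against the other 32 animals, 2 of 8 slow probes were lower in all of set A, beside 2.16% of all tested probes (2.70% in either direction). Within set A, 4 of 8 (MYH7B, MYL6B, TNNT1 and TNNC1) were higher in group 4 than in group 2 without overlap, beside 9.39% of all tested probes (18.3% in either direction).

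On the 1 slide that held both kinds of set A animals the step between them was present as well. On it, animal 269 of group 2 had 7.90 for MYH7B, against 10.55 and 10.99 in animals 36 and 58 of group 4. For TNNT1 it had 14.9999 against 16.09 and 16.32, and for MYL6B 14.82 against 16.46 and 16.67. With 1 animal on 1 side these values carry no test.

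**Figure D3:**
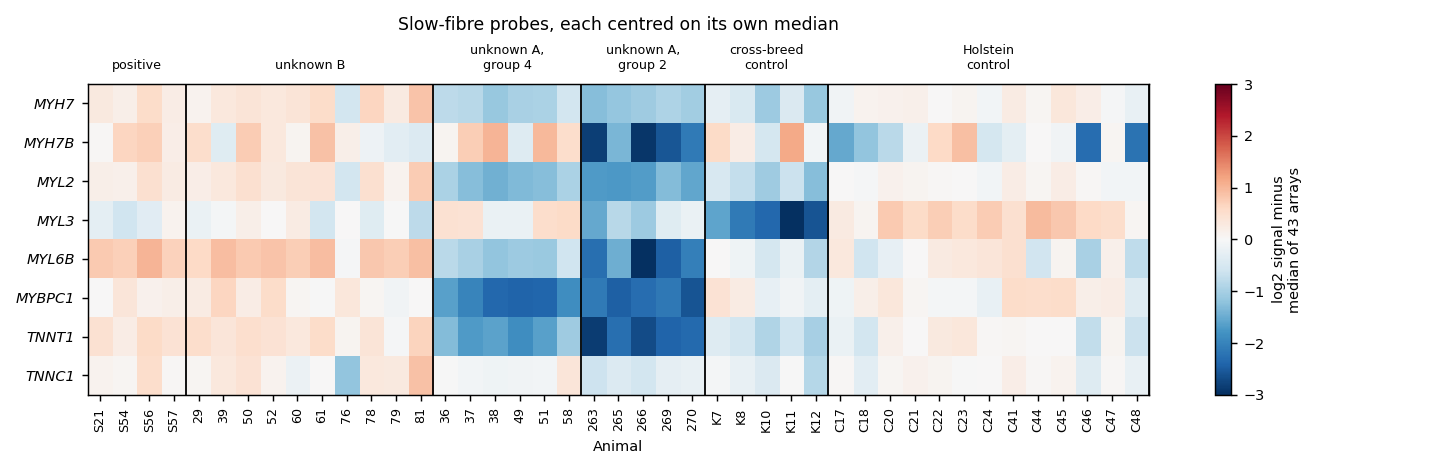
Each slow-fibre probe (row) in each of the 43 animals (column), as its normalized log2 signal minus the median of the probe over all arrays; black lines separate the sets. Set A is blue for MYBPC1, TNNT1, MYL2, MYH7 and MYL6B, MYH7B is deep blue in group 2 and in single Holstein animals, and MYL3 is blue in the cross-breed controls.

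As labelled, the unknown group mixed these sets, and no slow probe was called between it and the positive animals. Of 8 slow probes 0 were called between positive and unknown animals by limma, beside 0.0489% of all tested probes, and 0 had an unadjusted p under 0.05, beside 23.8%. The changes ran from -0.10 for MYL3 to 1.28 for TNNT1, whose 95% interval was -0.0039 to 2.55. On the 2 slides that held both, with slide as a block, 0 of 8 and 0% of all tested probes were called by limma. There MYL6B and TNNT1 changed by -0.0038 ± 0.14 and 0.04 ± 0.16, and MYBPC1 by 0.12 with a 95% interval from -0.22 to 0.46. At an unadjusted p under 0.05 the shared slides gave 0 slow probes and 11.5% of all tested probes. Between unknown and cross-breed animals MYL3 was the 1 slow probe called (2.19 ± 0.27, adjusted p = 3.82e-06, limma), beside 10.4% of all tested probes and 5.24% called as higher in unknown animals. MYBPC1 was also called, as lower in unknown animals (log2 change -1.503), when the 5 arrays of low spike-in signal, all in set B, were left out.

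The Holstein animals, all of 1 breed and 1 labelled group, showed how the slow genes varied without these sets. Their SD was 0.10 for MYL2, 0.15 for MYH7 and 0.18 for TNNC1, but 0.49 for MYL6B and 0.99 for MYH7B. The SD of TNNC1 is not exact, since its spots were saturated in C44 and C45. MYH7B was lowest in C46 and C48, at 8.19 and 8.24, and highest in C22 and C23, at 11.06 and 11.37. The same 2 animals, C46 and C48, were the lowest for TNNT1 and MYL6B, at 16.66 and 16.75 and at 16.29 and 16.51.

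Correlations over the 13 Holstein animals were computed for the 28 pairs of slow genes, and 27 had a Pearson r above 0. In 4 pairs both coefficients had an adjusted p under 0.05 by permutation. MYH7 and MYL2 had r = 0.843 (permutation p = 2.2e-04, adjusted 0.00308) and rho = 0.841 (p = 5.9e-04, adjusted 0.0165). Without the 2 animals farthest from the MYH7 median r was 0.75, and within the scan day that held 6 of these arrays it was 0.868. MYH7B and TNNT1 had r = 0.909 (permutation p = 5e-05, adjusted 0.0014) and rho = 0.791 (p = 0.00196, adjusted 0.0274), with 0.789 without the 2 farthest animals and 0.920 within that scan day. MYBPC1 went with MYH7 (r = 0.784, permutation p = 0.00153, adjusted 0.0124, rho = 0.764, p = 0.00319, adjusted 0.0298) and with MYL2 (r = 0.742, permutation p = 0.00402, adjusted 0.0161, rho = 0.742, p = 0.00538, adjusted 0.0377). Without the farthest animals these 2 values were 0.604 and 0.538. Within the scan day they were 0.683 (exact permutation p = 0.132) and 0.513 (exact permutation p = 0.31). The other 2 pairs, MYH7 with MYL2 and MYH7B with TNNT1, each had an exact permutation p = 0.0153 there. The permutations over all 13 animals did not keep animals within their scan day. MYH7 with MYL6B (r = 0.0258, permutation p = 0.932, adjusted 0.967, rho = -0.104, p = 0.735, adjusted 0.858) was the pair of lowest absolute r among those of MYH7, but r was -0.403 without the 2 farthest animals and 0.585 within the scan day. All probes of an array share its scaling curve, whose part in these relations was not tested.

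Other slow-fibre genes were counted as a list of their own. Of 12 genes listed, 11 were on the array with 12 tested probes, and 1 was called higher and 4 lower in positive than in cross-breed animals, with a median change of -0.50, beside 28.1% of all tested probes called and 14.4% called as higher. SLN, whose sarcolipin restrains the calcium pump, changed by -2.91 ± 0.28 and CSRP3, a Z-disc protein, by -1.94 ± 0.27, while CASQ2, the calcium store of slow and cardiac muscle, was well above background in 3 of 4 positive animals and all 5 cross-breeds, with a change of -1.90 ± 0.72 that ran from -2.52 to -1.06 over the scalings. Against Holstein animals 4 were called higher and 1 lower, beside 17.8% of all tested probes, with ANKRD2, a stretch-responsive protein, at 2.06 ± 0.43 and SLN at -4.08 ± 0.22. CASQ2 was among those called higher there, at 2.02 ± 0.74, with 1.52 to 2.81 over the scalings and a call in 7 of 8. Among the unknown animals 2 of the 12 probes had set B above set A without overlap, beside 6.21% of all tested probes. These were ACTN2 (15.02 to 15.59 against 12.74 to 13.49), an alpha-actinin of the Z-disc, and MYOZ2 (14.26 to 15.99 against 11.56 to 13.52), a calcineurin-binding Z-disc protein.

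Fast-fibre contractile genes were mostly lower in the positive animals than in both control groups, under every scaling. Of 13 tested probes, 9 were called lower and 0 higher in positive than in cross-breed animals, with a median change of -3.31, beside 28.1% of all tested probes called. Against Holstein animals 9 were lower and 1 was higher, with a median of -4.16, beside 17.8%. Under the 7 other scalings and spot choices 8 to 11 were lower. The MYH1 probe of larger change (1 of 2 for this gene, the fast IIx heavy chain) changed by -7.32 ± 0.98 against cross-breeds, MYBPC2, the fast binding protein C, by -6.01 ± 0.76 and ATP2A1, the fast calcium pump, by -5.12 ± 0.58. Between Holstein and cross-breed animals 2 fast probes were higher and 2 lower, with a median of 0.51, beside 20.6% of all tested probes called. These counts were 5 and 3 with the 75th percentile, and the median was -0.03 with quantile normalization. Set A was not uniform for MYBPC2, which had medians of 16.68 in group 2 and 13.16 in group 4, beside 12.30 in set B and 10.88 in positive animals. Beside the low MYBPC1 and TNNT1 signals, MYBPC2 was thus high in all of group 2 (16.58 to 16.84) and spread widely in group 4 (12.65 to 16.51). TNNC2, fast troponin C, had medians of 17.34 and 14.81 in these groups, whose ranges just overlapped. The probe described as MYH4, also on this list, went the other way, with 8.55 in group 2 and 11.68 in group 4. Over the list, 1 of 13 probes was higher in set B than in set A without overlap and 0 were lower. Among all tested probes 11.7% did not overlap, 6.21% with set B higher. The median difference of the list was -2.05.

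**Figure D4:**
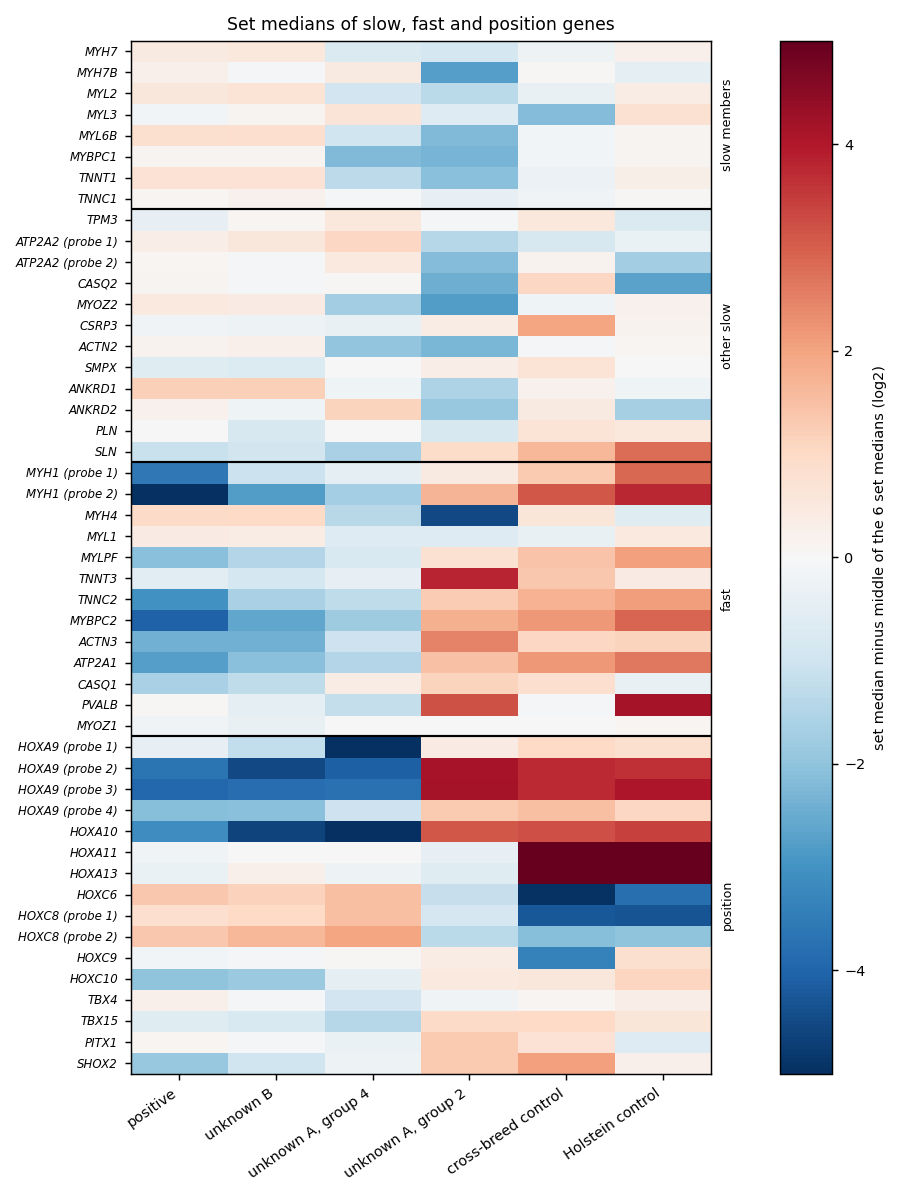
Median log2 signal of each probe (row) in each set (column), minus the middle of its 6 set medians, for the slow genes, the other slow-fibre genes, the fast-fibre genes and the position genes. Most fast genes are blue in positive, set B and group 4 animals and red in group 2, cross-breed and Holstein animals, as are HOXA9 and HOXA10, while MYBPC1 and TNNT1 are blue in both groups of set A.

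Of 14 tested probes of oxidative metabolism genes 2 were called as higher in positive than in cross-breed animals, beside 14.4% of all tested probes, with a list median of 0.66. It was 6 with the 75th percentile and with normexp, and with cyclic loess on every pair 1 was higher and 1 lower, with a median of 0.17. The 2 were the probe of LPL, lipoprotein lipase (1.70 ± 0.25), and 1 of the 2 probes of CKMT2, mitochondrial creatine kinase (1.10 ± 0.14), while the other CKMT2 probe, at 0.32 ± 0.18, was not called. In 25 tested probes of fibre type regulators 4 were called as higher and 10 as lower, beside 28.1% of all tested probes called in either direction. The probe of larger change of the 2 for RCAN1, a calcineurin inhibitor and target, changed by -3.07 ± 0.35, ESRRG, an oxidative programme receptor, by 2.27 ± 0.29 and PPP3R1, the calcineurin B subunit, by 1.83 ± 0.21. Set B lay above set A without overlap in 2 of the 14 oxidative and 1 of the 25 regulator probes, beside 6.21% of all tested probes.

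Skeletal muscle actin, which is not a slow-fibre gene, was singled out after its values were seen. The ACTA1 signal had medians of 17.63 in positive, 17.67 in set B, 15.55 in group 4, 15.60 in group 2, 16.30 in cross-breed and 17.35 in Holstein animals. In the skeletal muscle list 4 of 18 probes were higher in set B than in set A without overlap, beside 6.21% of all tested probes, and 0 were lower, while the median difference of the list was -0.16. Between positive and cross-breed animals 2 of the 18 were called as higher and 5 as lower, beside 28.1% of all tested probes called and 14.4% called as higher. The median change was -0.33, and the counts were 0 and 8 with cyclic loess on every pair, with a median of -1.02.

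Of 16 tested probes of genes that mark position along the limb and body axis, 4 were called as higher and 10 as lower in positive than in cross-breed animals, beside 28.1% of all tested probes called and 14.4% called as higher. With normexp it was 3 and 7. HOXA11 and HOXA13 were well above background in 0 of 4 positive animals and in 5 of 5 cross-breeds, and 1 HOXA9 probe in 1 of 4 and 5 of 5. Set against the lowest signal measured above background on each positive array, HOXA11 was at least 138-fold higher in the cross-breeds (adjusted p = 8.24e-07, limma) and HOXA13 at least 55.3-fold higher (adjusted p = 2.47e-06, limma). The fitted log2 changes of positive against cross-breed animals ran from -8.89 to -3.62 for HOXA11 and from -8.61 to -2.67 for HOXA13 over the settings tried, and the bounds were computed at the reported setting only. HOXA10 had medians of 4.19 in positive, 2.66 in set B and 1.74 in group 4, but 10.37 in group 2, 10.51 in cross-breed and 10.70 in Holstein animals. HOXC6 was 10.28, 10.12 and 10.45 in the first 3 of these and 7.77, 3.99 and 5.16 in the others. HOXA10 was well above background in 1 of 4 positive animals, 1 of 10 of set B and 0 of 6 of group 4, and in all animals of the other groups, while HOXC6 was so in all animals except 3 cross-breeds and 1 Holstein. The log2 of the summed linear signals of all 17 list probes ran from 10.9 to 12.1 in positive, set B and group 4 animals. It ran from 12.4 to 13.7 in the rest, and the brightest gene was TBX15. The part of sampling position in the slow-gene differences was not tested.

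Markers of other cells were counted in the same comparison, in which 28.1% of all tested probes were called, 14.4% as higher. Of 5 tested adipocyte probes 3 were higher in positive than in cross-breed animals and 5 in Holstein than in cross-breed animals, where 20.6% of all tested probes were called and 10.9% called as higher. The 5 were 3 with normexp. The log2 of the summed linear signals of all 6 adipocyte probes, tested or not, ran from 7.73 to 8.53 in cross-breed animals. It ran from 10.48 to 11.52 in positive and from 8.93 to 12.46 in Holstein animals, with FABP4 as the brightest gene. LEP, which was not tested, was well above background on 4 arrays. Of 4 tested heart probes 2 were higher and 1 lower in positive than in cross-breed animals, but 3 and 0 with the 75th percentile, 1 and 0 with normexp and 0 and 1 with cyclic loess on every pair. The log2 of the summed linear signals of all 9 heart probes, tested or not, lay at 9.78 to 10.96 in positive animals. In cross-breed animals it lay at 8.14 to 9.29, and TNNI3 was the brightest gene. Smooth muscle probes were called in 1 of 8 upward and 1 of 8 downward, and of 8 fibroblast and tendon probes 1 was higher and 4 were lower. Of 5 endothelial probes 3 were higher, of 7 nerve probes 2, of 2 blood probes 2 and of 6 leukocyte probes 0. Against Holstein animals 7 of the 8 fibroblast and tendon probes were called lower in positive animals and 0 higher (median -2.46), beside 17.8% of all tested probes called. Between Holstein and cross-breed animals 4 of these 8 were called higher and 0 lower (median 1.19), beside 20.6%. The part of these cells in the slow-gene differences was not tested. Of 2 tested sex-linked probes 0 were called. The ZFY probe of the Y chromosome had medians of 3.83 and 3.87 in groups 4 and 2 of set A. In the other sets its medians were 6.21 to 6.82. ZFY was well above background in 3 of the 11 set A animals and 31 of the other 32. The other tested sex-linked probe, UTY, was well above background on 42 of 43 arrays. SRY was so on 4 arrays only and did not pass the filter. All animals were recorded as male.

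The genes whose signals went most closely with the 8 slow probes over the 43 animals, once the mean of each labelled group was removed, were led by the probe described as MYH4 (mean Pearson r = 0.76, lowest 0.43), PDLIM1 (0.73) and GCDH (0.73). ATP5F1B, GJA5, TSC2, RALY, PCCB, HEATR6 and MACF1 followed, at 0.71 to 0.73. These values describe the arrays and carry no test, since the contrast between sets A and B inside the unknown group shapes them. MYH4 is named for a fast heavy chain, but its probe had medians of 14.01 in positive, 14.06 in set B, 11.68 in group 4, 8.55 in group 2, 13.67 in cross-breed and 12.44 in Holstein animals, and the name rests on the description alone. Among the slow genes themselves, by the same measure, MYL2 and MYH7 had r = 0.98 and MYL6B and TNNT1 0.96, whereas MYL3 had 0.15 with MYH7 and 0.17 with MYBPC1.

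**Figure D5:**
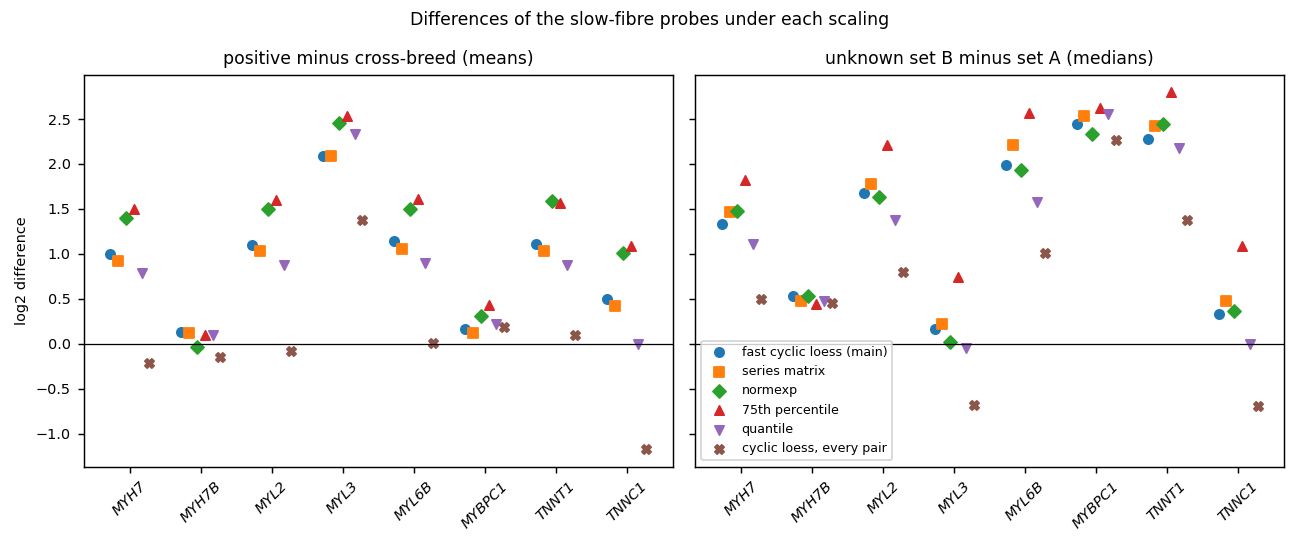
Log2 difference (vertical axis) of each slow-fibre probe (horizontal axis) under 6 scalings, for positive minus cross-breed animals (left, means) and unknown set B minus set A (right, medians). The crosses of cyclic loess on every pair are the lowest for nearly all bright probes, reaching -1.17 for TNNC1, while MYBPC1 differs by 2.27 or more between the sets under every scaling.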

How the data were processed

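The deposited files were scanner outputs, in which the authors used Feature Extraction to subtract background and give a processed intensity per spot. The authors' series matrix, also on a linear intensity scale, served as an alternative. Log2 intensities of gene and spike-in spots were scaled by fast cyclic loess over all 43 arrays in limma 3.58.1, spots flagged as outliers were left out, and the 2 spots of a probe were averaged. Probes under a log2 signal of 4 on at least 30 arrays were removed, leaving 16354. Groups were compared with lmFit and eBayes on the arrays of the groups compared, with Benjamini-Hochberg adjustment over all tested probes, and called at an adjusted p under 0.05 and 2-fold. The script was tested on simulated data. Correlations used 100000 permutations in Python. Named genes were the 8 members, the 3 genes of largest change among those called in each list, and the 10 genes of highest mean correlation. Further genes shown beside them (ACTA1, ACTN2, MYOZ2, TNNC2, HOXA10, HOXC6, TBX4, TBX15, PITX1, SHOX2, ZFY, UTY, SRY, MYL1) were chosen after their values were seen. The members and lists were chosen with earlier results of these data known. Alternatives covered scaling, background, filter, saturated and outlier spots, batch blocks and leaving out animals. Symbols came from the probe names, descriptions and a RefSeq gene table (assembly ARS-UCD2.0). No probe sequences or coordinates were used here. Replicates are separate animals.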

Additional observations from a re-analysis of the deposited data

Results flagged for a closer look

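In 5 of 40 groups of values 1 animal stood apart from the others by Dixon's criterion, which chance alone meets in about 1 of 20 groups. In unknown set B this was animal 76, the array with 109 saturated gene spots, for 3 genes: 17.19 for MYL2, where the next animal had 17.85, 17.24 for MYL6B, where the next had 17.88, and 17.38 for TNNC1, where the next had 18.39. On that array both spots of each of these 3 genes were saturated, so the values are bounds, and their rank and distance from the next animal cannot be read. Among the positive animals S56 had 19.08 for TNNC1, with 1 of its 2 spots saturated, and the next had 18.66. In group 4 of set A animal 58 had 18.92 for TNNC1 and the next had 18.55.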

How the results depend on the processing

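Of the 8 slow probes, 4 were called between positive and cross-breed animals; it was 6 with the 75th percentile, 6 with normexp, 1 with quantile normalization, 2 with cyclic loess on every pair (1 higher and 1 lower in positive animals), 2 with all 43 arrays in one fit and 3 to 5 when 1 animal was left out. Against Holstein animals 0 became 2 with cyclic loess on every pair and 1 with normexp, and stayed 0 without any 1 animal. Between Holstein and cross-breed animals 1 became 4 with the 75th percentile, and between unknown and cross-breed animals 1 became 2 without the 5 arrays of low spike-in signal. MYH7 passed 2-fold against cross-breeds with the 75th percentile (1.497), normexp (1.40), slide (1.03) or scan day (1.01) as a random block and without K7, K8, K11, S54 or S57 (1.02 to 1.10). Signs turned under several alternatives, among them cyclic loess on every pair. There, positive against cross-breed animals gave -0.21 (MYH7), -0.075 (MYL2), -1.17 (TNNC1) and -0.15 (MYH7B), and positive against Holstein animals -0.76 (MYH7), -0.75 (MYL2), -1.23 (TNNC1) and -0.26 (TNNT1). Holstein against cross-breed animals gave -0.10 (MYBPC1) and -0.025 (MYL6B), positive against unknown -0.12 (MYH7) and -0.89 (TNNC1), and unknown against cross-breed -0.089 (MYH7), -0.16 (MYL2) and -0.28 (TNNC1). Quantile normalization gave -0.14 (TNNC1) and -0.0026 (MYL6B) for Holstein and -0.070 (TNNC1) for unknown against cross-breed animals. Normexp gave -0.039 for MYH7B in positive against cross-breed, 0.12 for MYL3 in positive against unknown and 3e-04 for MYL6B in unknown against cross-breed animals. The 75th percentile gave 0.33 for MYL3 in positive against unknown, and the series matrix -0.012 for MYBPC1 in positive against Holstein animals. With slide as a random block positive against unknown gave -0.012 (MYH7) and -0.16 (TNNC1), and unknown against cross-breed 0.14 (MYL6B) and 0.13 (TNNT1). With scan day these were -0.079 (MYH7), -0.027 (MYL2) and -0.20 (TNNC1), and 0.19 (MYL6B) and 0.19 (TNNT1). Leaving out 1 animal gave -0.072 (without K10) to 0.34 for MYH7B in positive against cross-breed, -0.027 (without S54) to 0.091 for MYBPC1 against Holstein and -0.23 to 0.0045 (without S54) for MYL3 against unknown animals. Without animals 50 and 79 on the shared slides, a choice made after seeing the data, MYL3 was 0.28 and TNNT1 -0.11. The causes were not tested. Of the values for single probes, 727 kept their direction and side of the threshold (or moved by less than the spread) and 37 changed sign. A further 8 were classed as weaker, 17 as stronger and 11 as moved. Among all tested probes, normexp called 1359, 462, 1389 and 830 where the reported setting called 4597 (positive against cross-breed), 2911 (positive against Holstein), 3361 (Holstein against cross-breed) and 1706 (unknown against cross-breed), and pairwise loess called 5776 of positive against Holstein. For positive against unknown animals 8 became 1 (normexp), 2 (75th percentile), 32 (series matrix), 39 (quantile) and 114 (pairwise loess). The median change of all probes between positive and cross-breed animals was -0.03 as reported, -0.26 (pairs), -0.13 (quantile) and 0.11 (75th percentile). No paired analysis was possible because the labels give each animal its own number.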
